A study of Gallus gallus with 144 samples.

Results

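The genes of 5 insulin-like growth factor (IGF) binding proteins, IGFBP1, IGFBP2, IGFBP3, IGFBP4 and IGFBP5, were described through their transcription start sites in chicken tissues. They were taken as the IGFBP genes with a promoter label in a list of CAGE peaks, and they held 6 of 24969 promoter peaks and were 5 of 10437 labelled genes. CAGE sequences the capped 5′ ends of RNA, and a peak is a stretch of the genome where such ends gathered. The labels describe brain, breast, heart, kidney, leg and liver samples from fast-growing and slow-growing chickens, 12 libraries for each of the 12 combinations, from 24 birds that each gave all 6 tissues. No source used here gives strain, age or sex. The 153662 peaks, on GRCg6a, are pooled over all libraries with no column for any of them, so neither a fast-growing against slow-growing nor a tissue comparison was made and there are no replicates. Peaks carry no height, depth per library is unknown, and every value below describes the pooled list, with no test.

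IGF binding proteins are secreted proteins that hold IGF1 and IGF2 in blood and tissue fluid and limit their access to the IGF1 receptor. They share cysteine-rich domains at both ends of the protein, joined by a variable linker that proteases cut to free the growth factor. In mammals IGFBP3, with the acid-labile subunit IGFALS, carries most IGF in the circulation, and IGFBP1 comes mainly from liver, where insulin lowers its transcription.

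The promoter peaks divided into very narrow and moderately wide ones. IGFBP2, a binding protein known from brain and liver, had a promoter peak of 1 bp on the minus strand of chromosome 7 (position 23307770). IGFBP1 had a peak of 2 bp on the plus strand of chromosome 2 (54916564 to 54916565). IGFBP4, which mainly inhibits IGF action and is cut by the protease PAPPA in mammals, had a peak of 5 bp on the plus strand of chromosome 27 (7262036 to 7262040). These 3 lay below the median of all promoter peaks, 9 bp. IGFBP5, a binding protein of muscle and bone that also binds extracellular matrix, had the widest, 30 bp on the plus strand of chromosome 7 (23231886 to 23231915), as wide as or wider than 93.2% of all promoter peaks. IGFBP3 had peaks of 23 bp and 16 bp on the minus strand of chromosome 2 (54947899 to 54947921 and 54947932 to 54947947), separated by a gap of 10 bp. That gap was close to the median of 11 bp over the 2873 genes with 2 promoter peaks. Shares of genes were taken over the 10430 genes with every promoter on the same strand of 1 sequence. Of these, 807 (7.74%) had a widest promoter peak of at most 2 bp, as at IGFBP1 and IGFBP2. The widest was a single base, as at IGFBP2, for 4.82%, and at least 30 bp, as at IGFBP5, for 16.7%.

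**Figure D1:**
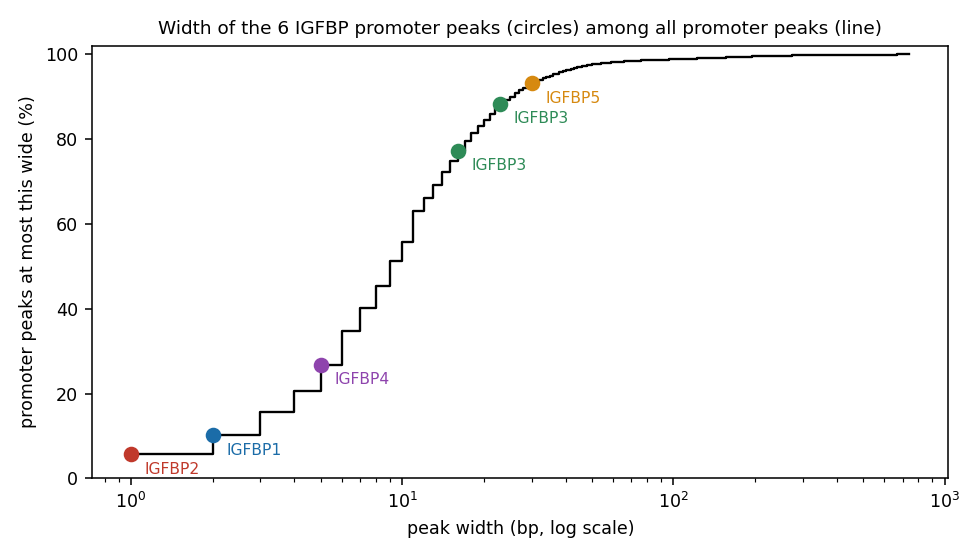
Share of all promoter peaks (y axis, percent) at most as wide as the width on the x axis (bp, log scale), with the 6 IGFBP promoter peaks as circles on the line. IGFBP2, IGFBP1 and IGFBP4 sit at 1, 2 and 5 bp on the lower part of the line, and IGFBP3 (16 and 23 bp) and IGFBP5 (30 bp) on the upper part.

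A single promoter peak was thus labelled at 4 of the 5 genes, against 36.0% of all 10430 genes. With promoter peaks up to 20 bp apart merged, all 5 members had 1, against 70.6% of all genes. Without promoter peaks of 1 bp, IGFBP2 had 0. Each peak has a representative position, whose meaning was read from the values. It lay at base 12 of the 23 bp peak and base 11 of the 16 bp peak of IGFBP3, near the middle of the first, and at base 6 of the 30 bp peak of IGFBP5, near its 5′ end. It was the last base of the peaks of IGFBP1 (base 2) and IGFBP4 (base 5).

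Most members had further peaks on their own strand within 1 kb that carried no label. Distances run between representative positions, starting from the first promoter peak of each gene. IGFBP5 had 6 such peaks, IGFBP3 5, IGFBP2 and IGFBP4 2 each, and IGFBP1 0. The members thus averaged 3 such peaks, against 0.689 over all genes. At least 1 was present at 4 of the 5 members, against 34.4% of all genes. These counts leave out labelled peaks, of which the members averaged 1.2 per gene, against 2.39 over all genes. Since the rule for labels is unknown, the counts cannot show whether the members had more peaks in all. Windows of 1 kb were not planned and were chosen after the values were seen.

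At the same 4 genes, the widest unlabelled peak was wider than any promoter peak of the gene, against 13.7% of all genes. Among genes whose widest promoter peak was at most 5 bp, which include IGFBP1, IGFBP2 and IGFBP4, the share was 25.6%. This measure was chosen after the values were seen. With the window reduced to 500 bp, 3 of the 5 members had a wider unlabelled peak, against 8.88% of all genes.

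The positions of these peaks differed between the members. At IGFBP2, an unlabelled peak of 22 bp lay 122 bp downstream of the labelled position, and another of 9 bp lay 173 bp downstream. At IGFBP4, unlabelled peaks of 10 bp and 13 bp lay 112 bp and 320 bp downstream. In both genes the labelled peak was thus the one farthest upstream and the narrowest of the 3.

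At IGFBP3 the labelled peaks headed a dense run. Unlabelled peaks of 39, 16, 11 and 31 bp followed on the minus strand at 51, 92, 120 and 264 bp. The fifth lay 720 bp upstream and was 1 bp wide. A peak of 38 bp on the opposite strand lay 801 bp downstream. A count of 5 or more unlabelled own-strand peaks within 1 kb, the value of IGFBP3, was found for 2.43% of all genes.

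Within 1 kb, IGFBP5 alone among the members had several own-strand peaks ahead of its promoter. The widest, 169 bp (23231274 to 23231442 of chromosome 7), lay 565 bp upstream. Peaks of 11, 11 and 17 bp followed at 335, 166 and 138 bp upstream, and peaks of 13 and 15 bp lay 491 and 992 bp downstream. At least 1 unlabelled own-strand peak upstream within 1 kb was found at IGFBP3 and IGFBP5, 2 of 5 members, against 9.58% of all genes. At least 4 unlabelled own-strand peaks upstream within 1 kb, the count of IGFBP5, were found for 0.959% of all genes. An unlabelled own-strand peak over 100 bp within 1 kb on either side was found for 0.537%. These measures were not planned and follow from the peaks seen at IGFBP5. In the whole list 88 of 128693 unlabelled peaks were at least 169 bp wide.

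IGFBP1 stood alone on its strand. Its nearest own-strand neighbour lay 12335 bp away, on the upstream side, and was 1 bp wide. Having no other own-strand peak within 10 kb was a feature of 20.2% of all genes and of no other member. On the opposite strand, a peak within 1 kb was found at IGFBP3 and IGFBP4, that is 2 of 5 members, against 26.1% of all genes. The one at IGFBP4 was 1 bp wide and lay 418 bp upstream.

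**Figure D2:**
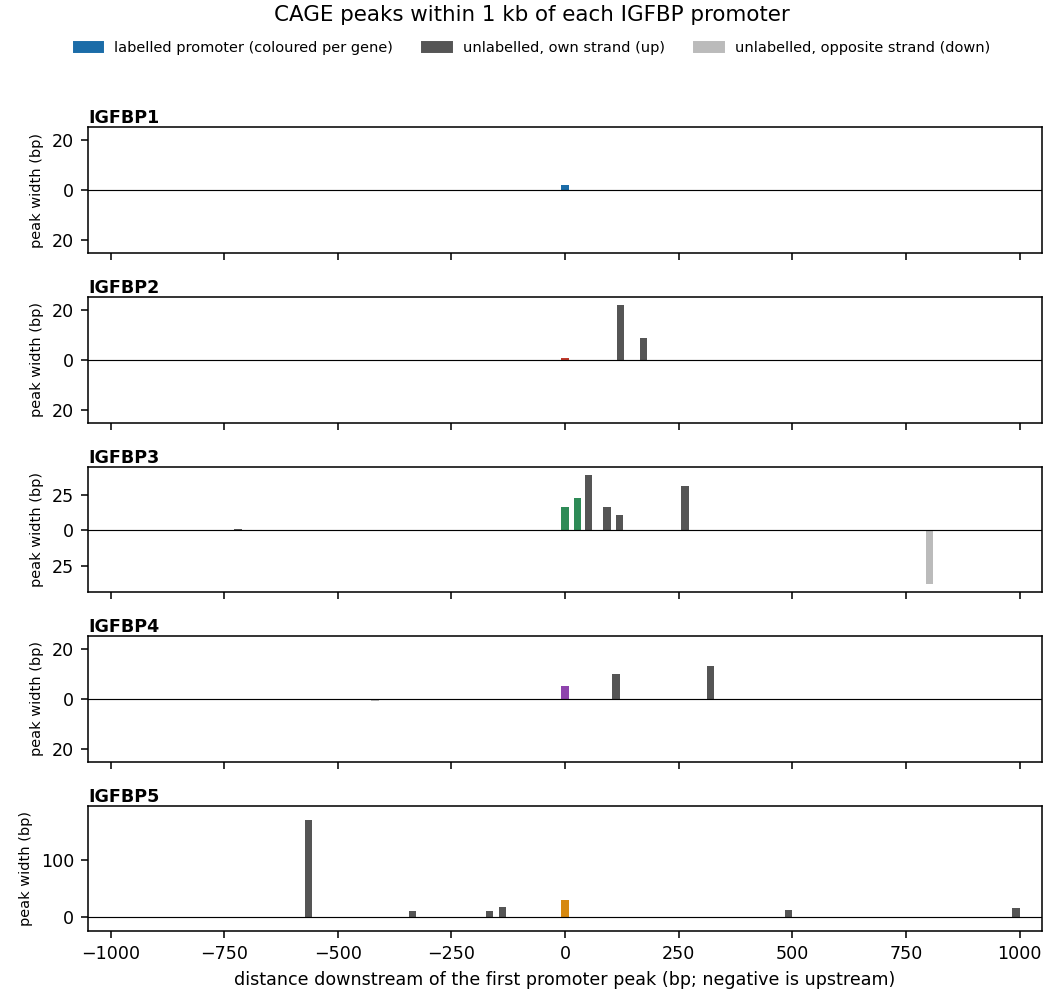
CAGE peaks within 1 kb of the first promoter peak of each gene, with the distance downstream on the x axis (bp) and peak width as bar height (bp), own strand upward and opposite strand downward; the vertical scale differs between panels. Coloured bars are labelled promoters and grey bars unlabelled peaks. The 169 bp peak stands 565 bp upstream of the 30 bp IGFBP5 promoter, and no bar accompanies the 2 bp IGFBP1 promoter.

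Beyond the first kilobase came a stretch with few unlabelled peaks at some members, above all IGFBP1 and IGFBP3. From 1 to 10 kb on both sides and both strands, IGFBP1 and IGFBP3 had 0 unlabelled peaks, IGFBP5 had 1, and IGFBP2 and IGFBP4 had 2 each, against a median of 3 and a mean of 3.95 over all genes. A count of 0 in this stretch was found for 12.5% of all genes, at most 1 for 31.8% and at most 2 for 49.8%. Labelled peaks were not counted, and those of TOP2A lay 8755 and 8783 bp upstream of IGFBP4. By strand, the members averaged 0.6 own-strand and 0.4 opposite-strand peaks, against 2.20 and 1.75 over all genes. The 2 peaks near IGFBP4 lay 3643 and 4385 bp downstream on its own strand and were 34 and 3 bp wide. From 10 to 50 kb the members averaged 9 own-strand and 7.6 opposite-strand peaks, against 7.86 and 7.54 over all genes. This division by distance was also chosen after the values were seen.

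**Figure D3:**
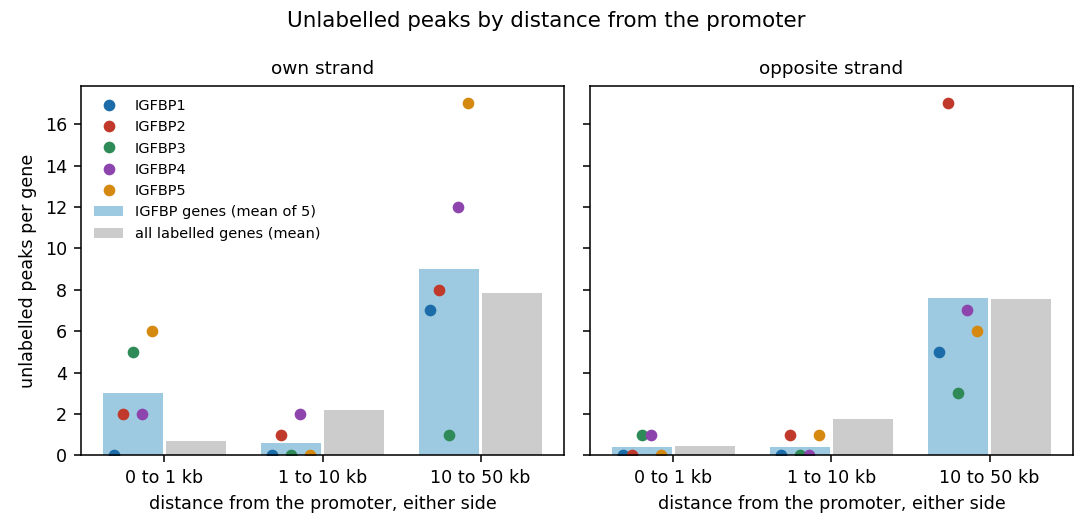
Unlabelled peaks per gene (y axis) by distance from the promoter (x axis), on the own strand at left and the opposite strand at right; blue bars are means of the 5 IGFBP genes, grey bars means of all labelled genes, and points the single members. The blue bar is higher than the grey one within 1 kb on the own strand (3 against 0.689) and lower from 1 to 10 kb on both strands.

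Within 50 kb on either side, the IGFBP5 promoter had the most own-strand peaks and the IGFBP2 promoter the most opposite-strand peaks. IGFBP5 had 23 own-strand unlabelled peaks and 7 opposite-strand ones, and 8.42% of all genes had as many or more on their own strand. IGFBP4 had 16 and 8, IGFBP1 had 7 and 5, and IGFBP3 had 6 and 4. IGFBP2 was the member with the reverse order, 11 own-strand and 18 opposite-strand peaks, and 11.2% of all genes had as many or more on the opposite strand. Own-strand peaks thus outnumbered opposite-strand ones at 4 of 5 members, against 49.1% of all genes.

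The medians were 11 own-strand and 7 opposite-strand peaks for the members, against 8 and 8 for all genes. With 100 kb windows the medians of the members were 16 and 20, so that their order turned round, while own-strand peaks still outnumbered opposite-strand ones at 4 of 5 members. With windows ended at the next labelled promoter, IGFBP4 had 5 and 2 and IGFBP5 had 15 and 4, so most of the peaks counted for IGFBP4 lay past the promoters of TOP2A and CCR7. With unlabelled peaks up to 20 bp apart merged with each other, but not with promoter peaks, IGFBP3 had 4 on either strand. This left 3 of 5 members with more on their own strand. The windows of IGFBP1 and IGFBP3 overlap, as do those of IGFBP5 and IGFBP2, so that these genes share peaks. Inside the windows the peak farthest from a promoter lay 49368 bp away, and outside them the nearest lay 50029 bp away.

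**Figure D4:**
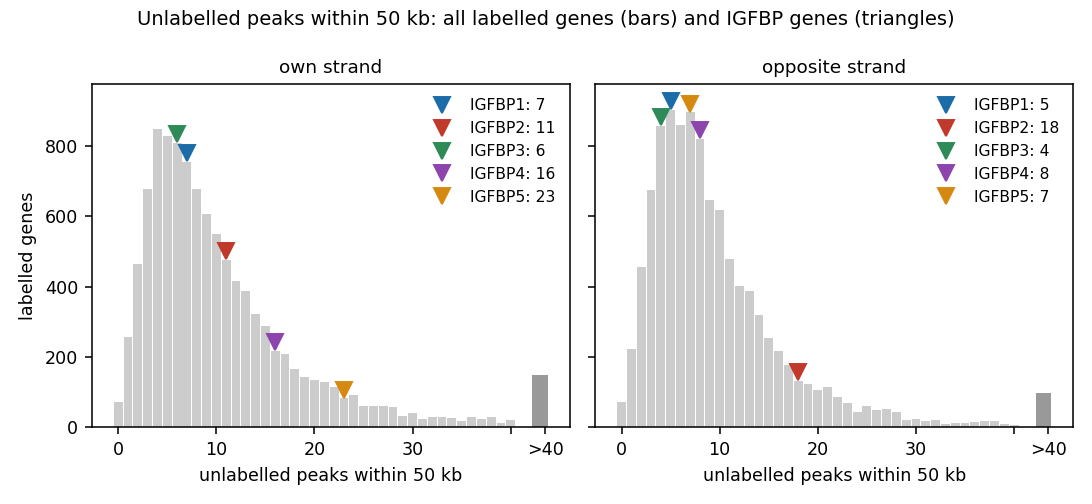
Number of labelled genes (y axis) by their count of unlabelled peaks within 50 kb (x axis, with higher counts gathered in the last bar), on the own strand at left and the opposite strand at right; triangles mark the IGFBP genes. IGFBP5 sits at 23 on its own strand and IGFBP2 at 18 on the opposite strand, both right of the main body of genes.

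Downstream of their promoters, from 500 bp to 20 kb, IGFBP5 had 4 own-strand and 1 opposite-strand unlabelled peaks, IGFBP4 3 and 1, and IGFBP2 3 and 2. IGFBP3 had 0 and 2, and IGFBP1 had 0 and 0. The count was higher on the own strand at 3 of 5 members, against 41.8% of all genes. Over the 5 genes there were 10 own-strand and 6 opposite-strand peaks. With the window extended to 50 kb there were 27 and 30, so that their order also turned round. These longer windows overlap between facing genes, and a shared peak counts once as own-strand and once as opposite-strand. The 2 totals are thus not independent, but a shared peak adds equally to both and does not change which is higher. Why the order turned round was not tested. To 20 kb the members averaged 2 own-strand and 1.2 opposite-strand peaks, with means of 2.43 and 1.88 over all genes. By median the order differed, with 3 own-strand and 1 opposite-strand peaks for the members, against 1 and 1 over all genes.

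Counting each peak once, the 3 neighbourhoods held 86 unlabelled peaks with a median width of 10.5 bp, of which 19 were 1 bp wide (22.1%), against 7 bp and 27.2% for all unlabelled peaks. On chromosome 7, around IGFBP5 and IGFBP2, 33 of 48 lay on the plus strand, the strand of IGFBP5 but not of IGFBP2. On chromosome 27, around IGFBP4, 16 of 24 did, and on chromosome 2, around IGFBP1 and IGFBP3, 8 of 14. The plus-strand share of all unlabelled peaks was not counted, so these counts have no background.

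The genes formed 2 linked pairs and a single gene, in the arrangement known from other vertebrates. IGFBP1 and IGFBP3 faced each other on chromosome 2 with promoters 31372 bp apart, IGFBP1 on the plus strand and IGFBP3 on the minus strand, and no labelled promoter lay between them. IGFBP5 and IGFBP2 faced each other in the same way on chromosome 7, 75879 bp apart. Between these lay the promoter peaks of ENSGALG00000031398, which the list names by identifier only, on the plus strand 20615 bp past IGFBP5. Among 2697 adjacent pairs of labelled genes that face each other, the median distance was 50109 bp. Of these, 35.2% were as close as IGFBP1 and IGFBP3 or closer. IGFBP5 and IGFBP2 are not such an adjacent pair, since a labelled gene lies between them. The adjacent pair there was ENSGALG00000031398 and IGFBP2, 55264 bp apart, and 52.7% of the adjacent pairs were as close or closer.

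The pairs differed in what lay between their promoters. Between IGFBP1 and IGFBP3 were 2 plus-strand and 4 minus-strand unlabelled peaks, or 0.191 per kb. The 4 were the run at IGFBP3, and 1 of the plus-strand peaks was the one opposite that run, so that beyond 1 kb from either promoter there remained 1 peak of 29 bp, on the plus strand, 20187 bp past IGFBP1. Between IGFBP5 and IGFBP2 were 18 plus-strand and 10 minus-strand peaks, or 0.369 per kb, of which 16 and 8 lay beyond 1 kb from either promoter. Adjacent facing pairs had a median of 0.142 peaks per kb, and 65.4% of them had a density at most that of IGFBP1 and IGFBP3. The stretch between IGFBP5 and IGFBP2 contains a labelled gene and was not ranked among them, while its part between ENSGALG00000031398 and IGFBP2 had 0.344 peaks per kb. Without peaks of 1 bp, 18 of the 28 peaks between IGFBP5 and IGFBP2 were left.

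**Figure D5:**
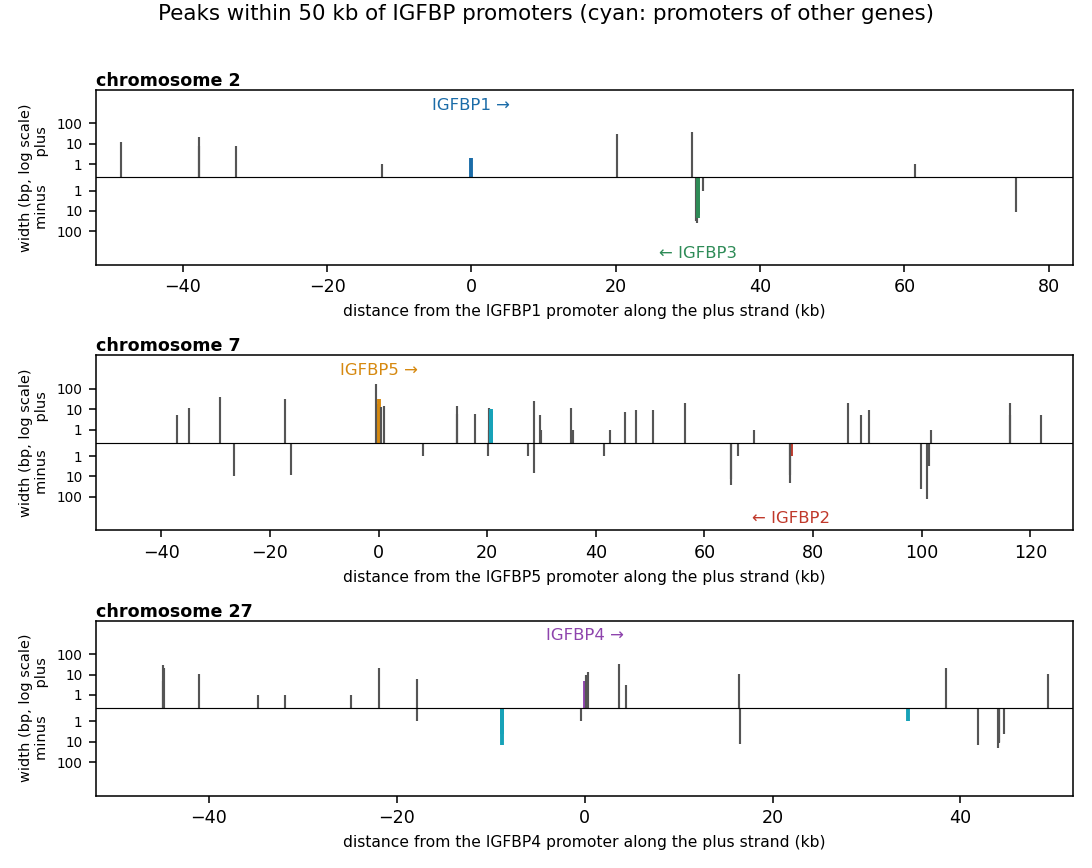
Peaks within 50 kb of the IGFBP promoters on 3 chromosomes, with the distance along the plus strand from IGFBP1, IGFBP5 or IGFBP4 on the x axis (kb) and peak width as line length (bp, log scale), plus strand upward and minus strand downward; coloured lines are IGFBP promoters, cyan lines promoters of other genes, and grey lines unlabelled peaks. The 31372 bp between IGFBP1 and IGFBP3 hold 6 unlabelled peaks, or 0.191 per kb. The 75879 bp between IGFBP5 and IGFBP2 hold 28, or 0.369 per kb.

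Pairs of adjacent peaks that point away from each other within 400 bp, as at bidirectional promoters and candidate enhancers, were found near some members. Within 50 kb there was 1 such pair at IGFBP5 and 1 at IGFBP2, that is at 2 of 5 members, against 57.7% of all genes. The pair near IGFBP5 had a gap of 97 bp and lay 20228 bp downstream, and both of its peaks were 1 bp wide. Its plus-strand peak, 20277 bp past IGFBP5, lay just before the promoter of ENSGALG00000031398 at 20615 bp. The pair near IGFBP2 had a gap of 297 bp and lay 25692 bp upstream. With gaps up to 200 bp, only the pair near IGFBP5 was left, and with gaps up to 800 bp there were 3 pairs near the members. The added pair was the IGFBP4 promoter itself with the opposite-strand peak of 1 bp that lay 418 bp upstream.

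A group of own-strand peaks far upstream of IGFBP2 contained the second unlabelled peak over 100 bp wide in these neighbourhoods. On the minus strand of chromosome 7, peaks of 40, 124 and 3 bp lay 23984, 25062 and 25543 bp upstream of the labelled 1 bp position, the widest from 23332716 to 23332839. A plus-strand peak of 1 bp lay beyond them, 25840 bp upstream, and formed the divergent pair near IGFBP2. No labelled promoter lay between this group and IGFBP2, and the next one upstream, that of RPL37A, was 64970 bp from IGFBP2. An unlabelled own-strand peak over 100 bp within 50 kb was thus found at IGFBP2 and IGFBP5, 2 of the 5 members, against 4.23% of all labelled genes. This measure was not planned and follows from the peaks seen at these 2 genes. Only 266 of the 128693 unlabelled peaks were over 100 bp wide (0.207%). Which gene's RNA gave these peaks was not tested, since the list gives no transcript for a peak.

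On the upstream side, the next labelled promoter was nearer at IGFBP4 than at the other members. Upstream of IGFBP1 the next labelled gene was ADCY1, which encodes an adenylyl cyclase, at 206437 bp. Upstream of IGFBP3 it was TNS3, which encodes the focal adhesion protein tensin 3, at 287267 bp and on the same strand. Upstream of IGFBP2 it was RPL37A, a ribosomal protein gene, at 64970 bp. Upstream of IGFBP5 it was ENSGALG00000054676 at 172006 bp. IGFBP4 had TOP2A, a DNA topoisomerase gene of dividing cells, 8755 bp upstream on the opposite strand. Downstream it had CCR7, a chemokine receptor gene of lymphocytes and dendritic cells, 34432 bp away, also on the opposite strand, with a promoter peak of 1 bp.

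In vertebrates the IGFBP genes lie near tensin genes and on the chromosomes of the HOX clusters. TNS3, with 3 promoter peaks, lay 287 kb from IGFBP3, and TNS1, with 6, lay 625 kb from IGFBP5. TNS4, the next protein-coding gene after IGFBP4 in the RefSeq table of the GRCg7b build, had no promoter label. The nearest labelled HOX gene was HOXB2, 0.985 Mb from IGFBP4. HOXD8 lay 6.94 Mb from IGFBP5 and HOXA11 22.3 Mb from IGFBP1.

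Of 41 genes of the IGF axis, 36 could be looked up as protein-coding symbols, and 20 of these had a promoter label (55.6%), against 57.0% of all symbol-bearing protein-coding genes. The ligand genes IGF1 and IGF2 had none under these symbols, but IGF1 had 1 promoter peak of 3 bp under its older symbol IGF-I. Of the receptors, INSR had 6 promoter peaks and IGF1R 2, and IGF2R had none. Of the proteases that cut binding proteins, HTRA1 had 2 peaks, the wider 384 bp, MMP2 had 3, ADAM12 had 1, PAPPA2 had 1 of a single base, and PAPPA had none. STC1, an inhibitor of PAPPA, had 2 peaks, while STC2, another such inhibitor, had none. IGFALS and IGFBP7, a related secreted protein with low affinity for IGF, had none either.

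Upstream of the growth factors, GH had 2 promoter peaks, and GHR, GHRH and GHRHR had 1 each. Of the signalling genes, PIK3R1 had 8, GRB2 and GAB1 4, IRS4 and JAK2 3, FOXO1 2 and MTOR 1. IGF2BP3, an RNA-binding protein that shares only part of its name with the binding proteins, had 4, and CCN3, which carries an IGFBP-type domain, had 1 of 1 bp. GHSR, IRS2, SOCS2, SHC1, AKT1, FOXO3, CCN2, IGF2BP1 and IGF2BP2 had no label. Genes without a label can still have peaks. The labelled axis genes had a median of 2 promoter peaks, and the 5 binding protein genes a median of 1.

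Marker genes of the sampled tissues were labelled for kidney (LRP2, CUBN and SLC34A1), heart (MYBPC3, TNNT2 and NKX2-5), brain (MBP, SNAP25, GFAP and ELAVL4) and skeletal muscle (ACTA1, TNNT3 and MYOD1). The muscle marker CKM could not be looked up as a protein-coding symbol. Of 4 liver markers AHSG had a label and ALB, TTR and APOA1 had none. Of all symbol-bearing protein-coding genes, 57.0% had a label.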

How the data were processed

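CAGE libraries of 144 samples were made by the authors with molecular identifiers by the nAnT-iCAGE method, per the labels' protocols. The tools named are UMI-tools 1.1.4 and STAR 2.7.9a, and the build is GRCg6a, per the submitters' processing notes. No source used here gives the settings of the peak caller or the rule for promoter labels. The deposited BED score and 1 further column were 1 in every row and were not used. Positions are printed 1-based.

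Chromosome names were assigned by hand, and the RefSeq table of GRCg7b placed all 1154 labelled genes compared on the same chromosomes. Only names, the protein-coding class, chromosomes and gene order were taken from that table. Comparisons over all genes left out 7 genes whose promoters were split between sequences or strands. Peaks were counted by representative position. The members and lists were chosen with earlier results of these data known. Named genes were the members, their nearest labelled neighbours, tensin and HOX genes, and the IGF axis list. No genome, promoter or protein sequence was used here, so the planned motif and protein comparisons were not run. Counts used Python 3.11.15, numpy 2.4.6 and pandas 2.3.3, and figures matplotlib 3.10.9. The counters were tested on simulated data.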

Additional observations from a re-analysis of the deposited data

How the results depend on the processing

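No value has an error between samples, and the list gives no depth, so what limits detection is unknown. Alternatives were other windows, gaps and gene sets, peaks of 1 bp left out, and peaks merged. Those for windows of 1 kb were chosen after seeing the data. Of 75 alternative values of the main results, 51 stayed within 1.5 times, or within the 95% binomial interval for shares, and 24 did not. The 51 include the values for assembled chromosomes only, which repeated the main values. All members lie on such chromosomes, and the values over all genes and all facing pairs were also unchanged. The 75 also include the place of IGFBP5 and IGFBP2 among adjacent facing pairs, although they are not such a pair. The tally is therefore no measure of stability. With 20 kb windows the medians were 5 own-strand and 2 opposite-strand peaks for the members and 3 and 3 for all genes, of which 48.1% had more on their own strand. With 100 kb windows the opposite-strand median was 20 for the members, and all genes had 16 and 15. With windows ended at the next labelled promoter the medians were 7 and 4 for the members and 4 and 4 for all genes. Without unlabelled peaks of 1 bp the opposite-strand median of the members was 4, and 18 peaks lay between IGFBP5 and IGFBP2. Downstream counts to 50 kb were 27 and 30, with peaks shared by facing genes counted on both strands. Labelled and unlabelled peaks were never merged with each other. With peaks merged, all 5 members and 70.6% of all genes had 1 promoter peak, and 47.8% of all genes had more own-strand peaks within 50 kb. For the widths within 1 kb, unlabelled peaks were merged but promoter peaks kept their unmerged widths. There, 16.6% of all genes had a wider unlabelled peak. Without merging, that share was 8.88% within 500 bp and 18.2% within 2 kb. Divergent gaps up to 200 bp gave 1 pair near the members and 49.1% of all genes with a pair, and gaps up to 800 bp gave 3 pairs and 65.6%. The cause of these changes, beyond the smaller or larger windows and fewer peaks by construction, was not tested. No paired analysis was possible because the list has no column per library.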
